A study of Dichotomyctere nigroviridis with 22 samples.

Results

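The response to phoenixin-14 (PNX-14) was compared between ovary and hypothalamus of vitellogenic female green-spotted puffers, using the libraries of both organs that carry the same fish number. Members were the numbers present in both organs, 2 to 6 among PNX-14 fish and 1, 2, 3, 5 and 6 among controls, which gave 20 of the 22 libraries and 10 numbers. For each gene the ovary minus hypothalamus difference in log2 CPM (counts scaled to library size) was taken within a number, and these differences were compared between 5 PNX-14 and 5 control numbers. A positive value therefore means that PNX-14 fish had a higher ovary level, relative to their own hypothalamus, than control fish had.

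All fish had been brought to vitellogenesis, and were sampled 24 h after 1 intramuscular injection. PNX-14 fish received 100 ng puffer-specific PNX-14 per g body weight, and controls received the vehicle alone (the sources give it as saline or as sterile water). The 4 groups were PNX-14 ovaries, control ovaries, PNX-14 hypothalami and control hypothalami, with 5 libraries each here. The sources differ on whether whole ovaries or ovarian biopsies were taken. A hypothalamus without an ovary of its number, PNX-14 number 1 and control number 4, entered only where stated.

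Phoenixin is a peptide hormone cut from the precursor Smim20, and its putative receptor is Gpr173, a member of the SREB family of orphan receptors. It is known for raising gonadotropin release by way of the hypothalamus, and it has been linked to feeding, stress and inflammation. The hypothalamus signals to the gonad through GnRH and the pituitary, while the vitellogenic ovary consists mostly of growing oocytes with follicle cells around them. A peptide given by injection can reach both organs, so the contrast within a number asks whether the response of a gene differed between the 2 organs.

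Libraries held 11794062 to 15297852 counts in PNX-14 ovaries, 11756975 to 15735216 in control ovaries, 9560905 to 10962243 in PNX-14 hypothalami and 9652996 to 12729314 in control hypothalami. Organ labels fitted their markers. The 4 egg coat genes summed to 19430 to 25500 CPM in PNX-14 ovaries and 17030 to 32830 CPM in control ovaries, and 29 neuronal genes summed to 3905 to 6299 CPM in PNX-14 hypothalami and 5332 to 6044 CPM in control hypothalami, against at most 161 CPM in any ovary. Egg RNA was also found in the hypothalami, where the same 4 genes summed to 116 to 3650 CPM in PNX-14 fish and 57.8 to 4223 CPM in controls. The hypothalami of PNX-14 numbers 3 and 4 and of control numbers 1, 2 and 5 held the most. A subset of 5 numbers with little egg RNA, PNX-14 2, 5 and 6 and control 3 and 6, was also fitted. It is small and not balanced, with egg coat means of 6.60, 6.87 and 4.73 log2 CPM in those PNX-14 hypothalami and 3.67 and 6.04 in those control hypothalami.

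The labels do not state that a number marks 1 fish across both organs, so this was examined in the counts. Over all 17525 tested genes, deviations of a library from its group mean correlated between same-numbered ovary and hypothalamus at -0.14 to 0.26 (median 0.12). Differently numbered libraries of the same group had -0.256 to 0.181 (median -0.03), so the ranges overlapped. Over all genes, control hypothalamus 2 (0.0743, against 0.125 with ovary 1) and control hypothalamus 5 (-0.14, against 0.181 with ovary 2) did not match their own number best. Over 244 variable genes with like levels in both organs, a set chosen after seeing the data, same-numbered libraries correlated at 0.02 to 0.56 with a median of 0.41, and differently numbered ones at -0.36 to 0.29 with a median of -0.08. In that set 8 of 10 hypothalami matched their own number best. The exceptions were PNX-14 number 4 (0.24, against 0.29 with ovary 2) and control number 5 (0.02, with no ovary above 0.06).

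**Figure D1:**
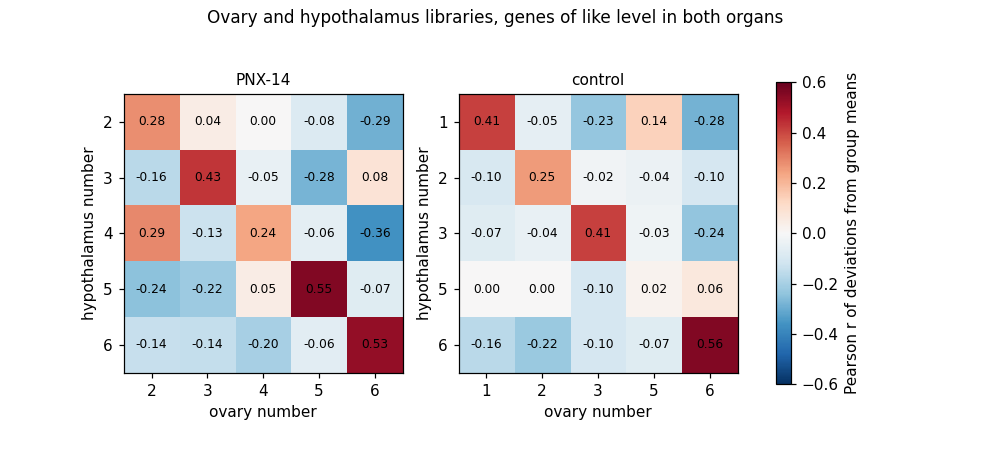
Correlation (Pearson r, across 244 genes) of the deviations from group means between each hypothalamus (rows) and each ovary (columns), for PNX-14 (left) and control (right) fish. The diagonal holds the same-numbered libraries, which are the highest of their row for 8 of 10 hypothalami, and control number 5 stands apart at 0.02.

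The response differed between the organs past the threshold for 1 gene of 17525 tested, trpm1b (0.00571% of genes, adjusted p under 0.05, edgeR quasi-likelihood with the fish number as a block). An unadjusted p under 0.05 was found for 727 genes (4.15%), 349 with a positive difference (1.99%) and 378 with a negative one (2.16%), and all genes but trpm1b had an adjusted p of 0.9999. The median log2 difference of all genes was 0.05. The 5 PNX-14 and 5 control values did not overlap for 103 genes (0.588%), 59 higher and 44 lower in PNX-14 fish. For 1 gene, random labels of 5 against 5 give no overlap with a probability of 0.00794. Apart from trpm1b, no difference between organs that follows was called by this test, and the values describe these 20 libraries.

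The gene trpm1b (ENSTNIG00000008398, chromosome 13, 7722525 to 7736564) encodes a cation channel of the melastatin TRP family, known in mammals from melanocytes and from retinal bipolar cells. It had 16.6, 11.8, 13.6, 19.8 and 13.4 CPM in the ovaries of PNX-14 numbers 2 to 6, against 0.61, 0.51, 0.19, 0.56 and 0.70 CPM in the ovaries of control numbers 1, 2, 3, 5 and 6. In the hypothalamus the same fish had 2.89, 3.93, 6.28, 3.73 and 2.47 CPM with PNX-14 and 3.98, 4.22, 2.65, 3.37 and 2.95 CPM in controls. Every PNX-14 ovary was above its own hypothalamus and every control ovary was below it, while the hypothalami of the 2 groups overlapped. The within-fish difference averaged 1.96 ± 0.61 log2 CPM in PNX-14 and -2.44 ± 0.43 in control fish (SD, n = 5 each), without overlap, and the fitted log2 difference of responses was 4.73 ± 0.45 (SE, edgeR adjusted p = 0.00275).

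Within organs, the ovary response of trpm1b was 4.82 ± 0.33 on the log2 scale (SE, edgeR adjusted p = 1.27e-05) and the hypothalamus response was 0.22 ± 0.27 (SE, adjusted p = 0.988). The unpaired hypothalami held 2.40 CPM (PNX-14 number 1), just below the 2.47 to 6.28 CPM of the paired hypothalami, and 3.73 CPM (control number 4), inside that range. Control ovaries rested on 2 to 10 counts per library, and PNX-14 ovaries on 124 to 279, so the size of the ovary response was less certain than its direction. The difference was called in each of the 10 fits that left out 1 number. In the subset of 5 numbers with little egg RNA it was 5.15 with an adjusted p of 0.0859. Of 7 TRPM channels tested, no other was called: the next was trpm3 at 2.54 ± 1.21, and trpm2, the channel of oxidative stress known from myeloid cells, stood at -0.80 ± 0.41 (SE, adjusted p = 0.9999 for both).

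**Figure D2:**
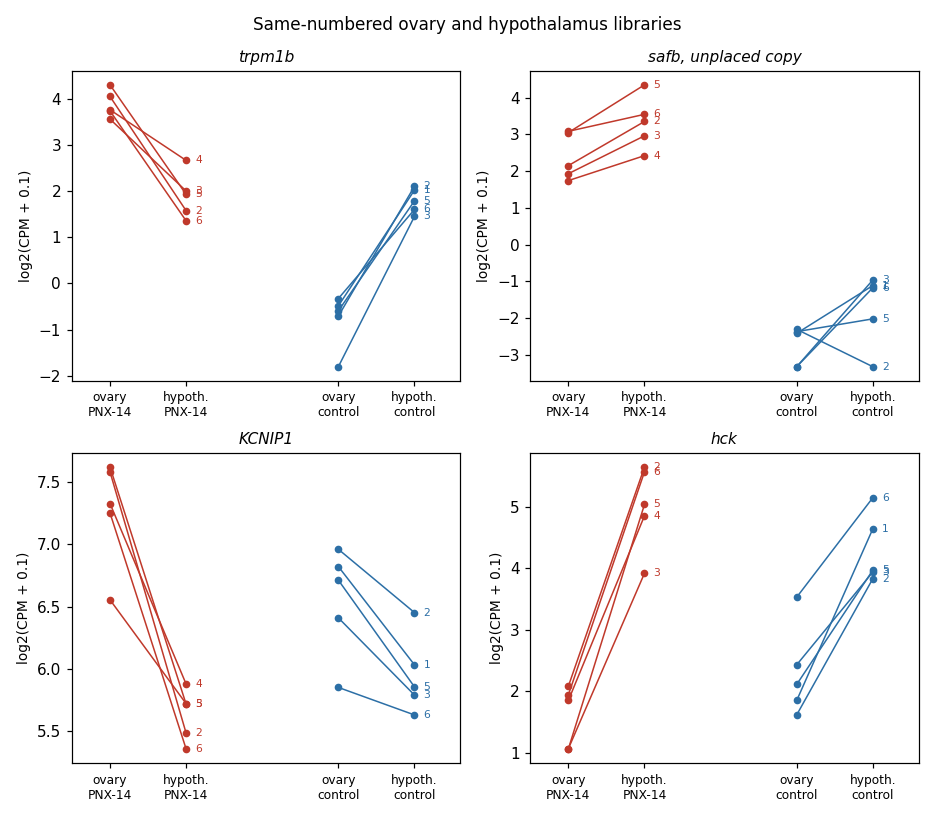
Level as log2(CPM + 0.1) of 4 genes in ovary and hypothalamus, PNX-14 fish at left in red and controls at right in blue, with a line joining the libraries of each number. The trpm1b lines slope in opposite directions in the 2 groups, the unplaced safb copy is high in both organs of PNX-14 fish, and KCNIP1 and hck differ in slope.

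Called in both organs was a gene annotated as safb (ENSTNIG00000003883, on the unplaced sequence), related to the nuclear scaffold attachment factor B that binds DNA and RNA. It had 43, 39, 37, 115 and 94 counts in PNX-14 ovaries, against 1, 1, 0, 1 and 0 in control ovaries. In the same fish the hypothalami held 122, 86, 66, 228 and 145 counts with PNX-14, against 4, 0, 5, 2 and 5 in controls. The groups did not overlap in either organ. It was called in the ovary, where 2 of 14777 genes were (0.0135%; safb and trpm1b), and in the hypothalamus, where it was the only 1 of 16938 (0.00590%), with an edgeR adjusted p of 0.000438 in the ovary and 0.00923 in the hypothalamus. Its difference between organs was 1.07 ± 0.83 (SE, adjusted p = 0.9999), which is no evidence that the responses were equal, since control levels lay at or near 0 and the estimate turned to -0.12 when computed from log2 CPM with a prior count of 2. In the hypothalamus of control number 4, which has no ovary here, the gene had 70 counts, as in PNX-14 fish, and no hypothalamus gene was called by edgeR once all 12 hypothalami were used (662 genes at an unadjusted p under 0.05) or without control number 1, 5 or 6 or PNX-14 number 6. Another gene named safb, on chromosome 1 (ENSTNIG00000015470) had a difference of -0.01 ± 0.19 (SE), with levels of 49.6 to 62.7 CPM in PNX-14 ovaries and 45.8 to 80.1 CPM in control ovaries. The 2 genes may share reads, and their counts are then uncertain.

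A gene for pyrimidine breakdown, dpydb (dihydropyrimidine dehydrogenase), had lower means in both organs of PNX-14 fish, without a call in either unless the egg RNA level was a term in the hypothalamus fit, where it was called. It had 1.31, 0.95, 0.88, 0.85 and 0.27 CPM in PNX-14 ovaries, against 2.54, 5.52, 2.13, 4.78 and 1.60 in control ovaries. Its hypothalami had 2.56, 5.71, 4.53, 2.31 and 1.28 CPM with PNX-14, against 55.1, 61.0, 4.13, 33.9 and 5.07 in controls 1, 2, 3, 5 and 6. The ovaries did not overlap, but the hypothalami did, and the 3 high control hypothalami are the 3 controls with much egg RNA. PNX-14 hypothalami 3 and 4, with 1976 and 3650 CPM of egg coat genes, had 5.71 and 4.53 CPM of dpydb, and no ovary was above 5.52 CPM. The cause of the high control values was not tested. The difference of responses was 0.84 ± 0.66 (SE, adjusted p = 0.9999) and was -0.11 among numbers with little egg RNA. The paper reports a significant change of hypothalamic dpydb in qPCR, correlated with its RNA-seq counts. For ovary dpydb it reports no positive correlation. A gene named gpr173, after the putative phoenixin receptor, was mostly hypothalamic. It had 54.0 to 67.4 CPM in PNX-14 and 49.8 to 68.4 CPM in control hypothalami. Its ovaries had 0 to 8 counts with PNX-14 and 2 to 10 counts in controls, and its difference of -0.97 ± 0.65 rests on those few counts. The related gpr85, with 0 to 5 counts in PNX-14 and 0 to 4 counts in control ovaries, had -0.56 ± 0.99 (SE, adjusted p = 0.9999 for both). No gene named smim20 or gpr27 was found in the joined tables. The paper states that the puffer expresses both sreb3 (gpr173) genes, with sreb3a highest in brain and gonads. Another such gene was not identified here, and 4543 joined genes have no symbol, so the level of the receptor in ovary is not settled.

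The genes after trpm1b were ranked by p in this same contrast, so a lack of overlap among them is no further evidence. They fall into those with ample reads in both organs and those that rest on a few ovary reads. Among the first, higher in PNX-14 ovaries relative to hypothalamus, was KCNIP1, a calcium-binding partner of potassium channels. It had 191, 196, 160, 93.9 and 152 CPM in PNX-14 ovaries against 113, 124, 84.97, 105 and 57.7 in control ovaries, and 44.7, 52.6, 58.8, 52.7 and 41.0 CPM in PNX-14 hypothalami against 65.4, 87.5, 55.3, 57.9 and 49.5 in control hypothalami. In the within-fish difference PNX-14 number 5 lay among the controls and the other 4 above them, and the difference was 1.04 ± 0.25 (SE). Values without overlap were found for 5 further genes of this direction: cax2 (0.73 ± 0.19), tctex1d2, a dynein light chain (0.88 ± 0.24), thap4 (0.93 ± 0.25), cops2, a subunit of the COP9 signalosome (0.80 ± 0.23), and lrfn1, a synaptic adhesion molecule (1.47 ± 0.39, SE throughout). For cops2, PNX-14 ovaries had 124 ± 35.0 CPM and control ovaries 92.1 ± 21.2, while hypothalami had 49.9 ± 4.89 CPM with PNX-14 and 65.4 ± 9.72 in controls (SD, n = 5). The lrfn1 value rests on 5 to 14 counts in PNX-14 and 2 to 6 counts in control ovaries.

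The remaining leading genes of positive difference were SRL, anxa13l and CLDN20, which overlapped between groups. SRL, for the muscle protein sarcalumenin, was carried by 3 ovaries: it had 427, 642 and 484 counts in the ovaries of PNX-14 numbers 4, 5 and 6, 15 and 6 in numbers 2 and 3, and 2 to 11 in control ovaries. Its difference was 4.08 ± 1.08 (SE). The annexin anxa13l (2.33 ± 0.64) and the claudin CLDN20 (2.88 ± 0.80) had 5 to 27 and 2 to 11 counts in PNX-14 ovaries, against 0 to 8 and 0 to 1 counts in control ovaries.

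Among the 10 leading genes of negative difference, several act in leukocytes. The Src family kinase gene hck, which marks myeloid cells, had 4.13, 2.00, 3.51, 1.99 and 3.74 CPM in PNX-14 ovaries against 3.51, 2.97, 5.29, 4.22 and 11.4 in control ovaries, and 49.8, 15.0, 28.7, 32.7 and 47.2 CPM in PNX-14 hypothalami against 24.8, 14.1, 15.2, 15.5 and 35.2 in control hypothalami. Within each organ the groups overlapped, but the within-fish differences did not: they were -3.93 to -2.81 in PNX-14 and -2.76 to -1.50 in control fish, with a fitted difference of -1.45 ± 0.33 (SE). Control number 6 shows how the pairing acts, since it was the highest paired control in both organs. Unpaired hypothalami had 40.8 CPM of hck (PNX-14 number 1) and 36.8 CPM (control number 4). Within-fish values did not overlap for nlrc3 either, of a family of cytosolic immune sensors with many copies in fish among which reads may be split, with a difference of -2.32 ± 0.57. Values of the T cell factor nfatc2a (-2.30 ± 0.54) and of tmc8 (-1.82 ± 0.46), which the files describe as a TMC7-like protein, overlapped through PNX-14 number 3.

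The other leading genes of negative difference were not immune genes. YWHAB, a 14-3-3 adaptor protein, had 9.57, 8.37, 10.9, 11.7 and 7.39 CPM in PNX-14 ovaries, all below the 16.7, 14.3, 15.2, 15.0 and 24.5 CPM of control ovaries, at 89.5 to 135 CPM in PNX-14 and 89.95 to 121 CPM in control hypothalami. Its difference was -0.93 ± 0.23 (SE), without overlap. The flippase gene atp8b2 (-2.35 ± 0.47), nexmifb (-2.86 ± 0.64), the ciliary gene ccdc135 (-1.89 ± 0.49), rtn4rl2a, a Nogo receptor relative (-4.01 ± 1.05), and asb14a (-7.16 ± 1.62) rest on low ovary counts. In PNX-14 ovaries nexmifb had 0 to 2 counts and rtn4rl2a 0 to 1, against 4 to 9 and 0 to 11 in control ovaries. asb14a had 612 and 486 counts in control ovaries 3 and 5 and 36 or fewer in the other ovaries. DESeq2 called asb14a (adjusted p = 0.0409), and the value rests on those 2 ovaries.

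**Figure D3:**
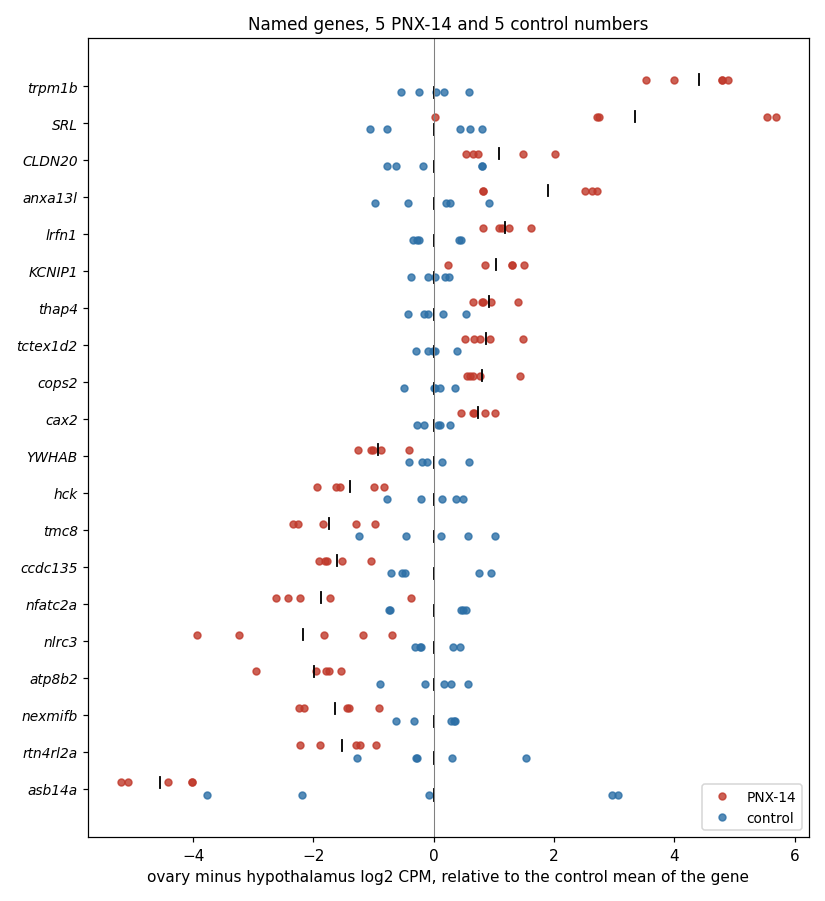
Ovary minus hypothalamus log2 CPM of each fish for the 20 leading genes, relative to the control mean of the gene, with 5 PNX-14 fish (red, upper row of each gene) and 5 controls (blue, lower row) and black ticks for the means. The trpm1b values of the groups lie well apart (means 1.96 with PNX-14 and -2.44 in controls before centring), while KCNIP1, SRL, anxa13l, CLDN20, nfatc2a, tmc8 and rtn4rl2a overlap.

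Gene lists were read for how the contrast was spread over functions. Leukocyte lists were among those with the most negative medians. Of 19 T and NK cell genes, 17 had a negative difference (median -0.99), with 6 at an unadjusted p under 0.05, all of them negative. Of 30 microglia and macrophage genes, 28 were negative (median -0.64, 6 at an unadjusted p under 0.05), and of 16 B cell genes 12 were negative (median -0.54, 7 at an unadjusted p under 0.05). The interferon response list had 19 of 22 negative (median -0.42, 3 negative ones at that threshold). For comparison, 44.2% of all genes had a negative difference, 2.16% met that threshold with a negative one and the median was 0.05. Genes of a list vary together, so that these counts are not independent, and no member was called.

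Medians within the organs had opposite signs, but for the leukocyte lists the ovary side leaned on control number 6, as given below. PNX-14 minus control medians were -0.49 in ovary and 0.65 in hypothalamus for T and NK cell genes, -0.46 and 0.51 for microglia and macrophage genes, and -0.32 and 0.51 for B cell genes. The interferon list had -0.07 in ovary and 0.52 in hypothalamus, so that its median lay mostly in the hypothalamus. In the ovary, control number 6 stood above the other controls. For T and NK cell genes it had 3.14 log2 CPM, against 1.605 to 2.04 in other control ovaries and 1.33 to 2.04 in PNX-14 ovaries. For B cell genes it had 3.34, against 2.155 to 2.76 and 2.02 to 2.79. The other control ovaries thus overlapped widely with the PNX-14 ovaries, and ovary medians without control number 6 are not given here. In the hypothalamus 28 of 29 tested microglia and macrophage genes had a positive response, and in the ovary 5 of 28 did. Over all genes tested, 52.2% were positive in the hypothalamus and 46.6% in the ovary. These counts leave out the unpaired hypothalami, of which control number 4 was above all paired controls for hck, spi1b and psmb13a. No leukocyte gene was called within an organ. Since bulk tissue was sequenced, fewer cells of a type and less RNA per cell cannot be told apart.

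By fish, the microglia and macrophage mean was -2.15, -1.28, -1.85, -2.01 and -1.77 log2 CPM in PNX-14 numbers 2 to 6, against -1.76, -1.10, -0.80, -1.33 and -0.76 in control numbers 1, 2, 3, 5 and 6. PNX-14 number 3 and control numbers 1 and 5 overlapped with the other group, and 4 of 5 PNX-14 fish lay below all controls. In PNX-14 number 3 the hypothalamus level was the lowest of all (4.02 log2 CPM, against 4.69 to 5.29 in the other PNX-14 hypothalami), and in control number 6 the ovary level was the highest (4.22, against 2.73 to 3.42 in the other control ovaries). Leaving out any 1 number kept the medians between -0.82 and -0.51 for these genes, between -1.18 and -0.80 for T and NK cell genes and between -0.78 and -0.43 for B cell genes. In numbers with little egg RNA they were -1.22, -1.42 and -1.12, but that subset lacks PNX-14 number 3 and control number 1 and keeps control number 6. In the means by fish, 3 of 5 PNX-14 fish lay below all controls for T and NK cell genes and 4 of 5 for B cell genes. For the interferon list 1 of 5 did, at -1.46 to 0.06 with PNX-14 and -1.15 to 0.26 in controls.

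Members of these lists are the myeloid master regulator spi1b, with 4.23, 3.04, 3.86, 2.91 and 4.80 CPM in PNX-14 ovaries against 3.59, 6.44, 6.03, 4.41 and 15.4 in control ovaries, and 37.1, 12.7, 26.8, 32.9 and 33.6 CPM in PNX-14 hypothalami against 23.1, 14.5, 17.8, 18.7 and 29.8 in control hypothalami. Among unpaired hypothalami, spi1b had 25.4 CPM in PNX-14 number 1 and 35.9 CPM in control number 4, the latter above all paired controls. The difference of spi1b was -1.20 ± 0.38, that of p2ry12, a purinergic receptor typical of mammalian microglia, -1.59 ± 0.51, and that of itgb2, a leukocyte integrin chain, -1.17 ± 0.39 (SE). In the T and NK cell list, the phosphatase gene ptpn6 had -1.25 ± 0.38, the adaptor lcp2a -0.95 ± 0.34 and the perforin prf1.9 -1.53 ± 0.57. In the B cell list, the B cell receptor component cd79b had -2.21 ± 0.66, its adaptor blnk -1.20 ± 0.37, the kinase syk -1.08 ± 0.35 and irf4a -1.40 ± 0.43. In all of these the hypothalamus estimate was positive, and the ovary estimate was negative wherever the gene passed the ovary filter.

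Genes of the immunoproteasome, which trims peptides for antigen presentation, had negative differences. Of these, psmb13a and psmb8a belong to the interferon response list above and are not a separate result. psmb12, psmb13a and psmb8a lie next to each other on the unplaced sequence (16353072 to 16358868) and had differences of -1.54 ± 0.47, -1.73 ± 0.54 and -1.35 ± 0.47 (SE). The annotated ends of psmb12 and psmb13a overlap, so their counts are not independent. psmb13a had 5.84, 4.37, 3.59, 4.69 and 9.52 CPM in PNX-14 ovaries against 5.79, 10.2, 11.4, 3.001 and 31.8 in control ovaries, and 58.9, 7.59, 20.3, 36.1 and 41.7 CPM in PNX-14 hypothalami against 15.7, 9.88, 11.6, 12.01 and 32.2 in control hypothalami. PNX-14 number 3 was again the lowest of its group in the hypothalamus. Without an ovary of their number, the hypothalami of PNX-14 number 1 and control number 4 had 36.4 and 40.05 CPM of psmb13a. Negative leads of other lists were tlr3, a sensor of double-stranded RNA (-1.66 ± 0.56), socs1b, a feedback inhibitor of cytokine signalling (-2.12 ± 0.71), and tgfb1a (-0.94 ± 0.38). The TGF-beta, BMP and activin list, which holds tgfb1a, had 33 of 58 genes positive (median 0.07) and reached 1.69 for fsta. In the interferon response list, trim25l had a positive difference of 0.56. The whole proteasome list had a median of 0.08 over 51 genes (-0.05 without control 5), the JAK-STAT list -0.22 over 31 and the NF-kB list -0.15 over 29.

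Blood markers leaned the same way as the leukocyte lists. Of 11 red blood cell genes 9 had a negative difference (median -0.55, or -0.85 without control 5, -0.36 without control 6, -0.37 without PNX-14 number 5 and -1.02 in the subset with little egg RNA), and their summed level was 385 to 1505 CPM in PNX-14 ovaries, 515 to 1112 CPM in control ovaries, 1230 to 4413 CPM in PNX-14 hypothalami and 1349 to 2547 CPM in control hypothalami. None of them was at 0 in any library. The embryonic beta globin hbbe2 had 104, 172, 691, 257 and 160 CPM in PNX-14 ovaries, against 173, 356, 286, 289 and 469 CPM in control ovaries. In hypothalami it had 386, 578, 2219, 1558 and 463 CPM with PNX-14, against 551, 524, 440, 1074 and 429 CPM in controls. PNX-14 number 4 was the highest of the paired libraries in both organs, and the difference was -0.96 ± 0.39 (SE). The unpaired hypothalamus of control number 4 was higher still, at 2891 CPM, and that of PNX-14 number 1 had 655 CPM. The part of blood in the leukocyte values was not tested.

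**Figure D4:**
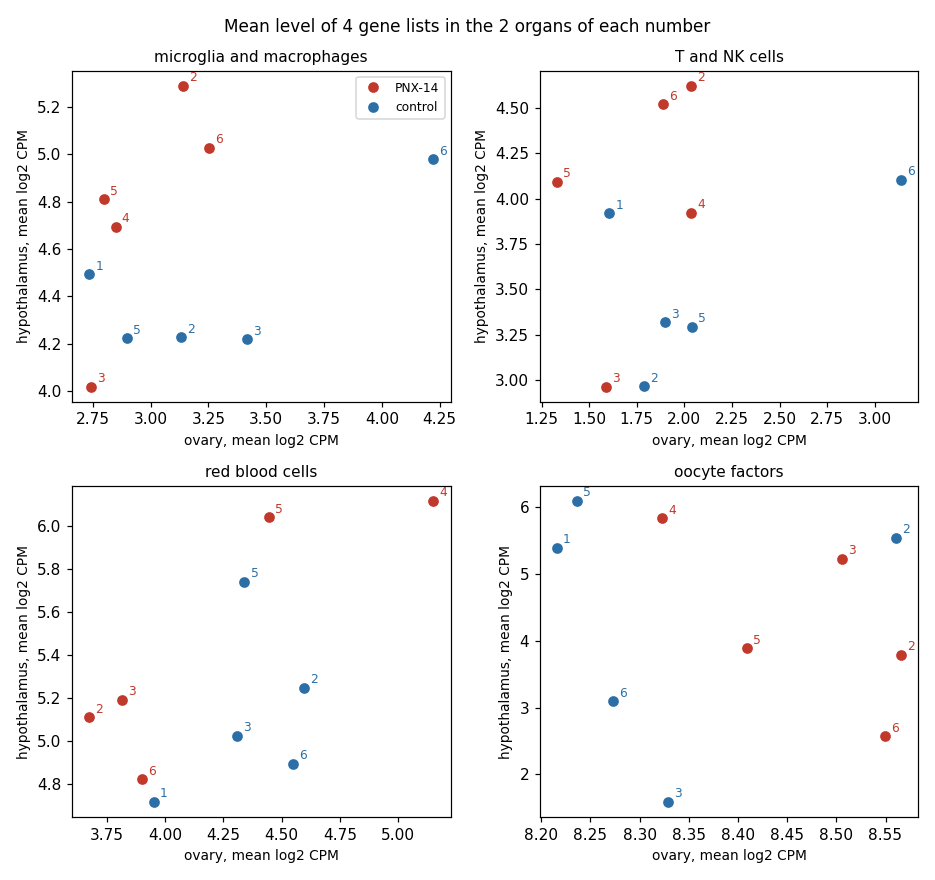
Mean log2 CPM of 4 gene lists in ovary (x axis) against hypothalamus (y axis), 1 point per fish number, PNX-14 in red and control in blue. For microglia and macrophages and for T and NK cells, PNX-14 number 3 lies low and control number 6 far to the right of the others, and oocyte factors spread along the hypothalamus axis from 1.59 to 6.09.

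The standard error of the difference was smaller with the fish number as a block than without it for 10 of 11 red blood cell genes, 22 of 30 microglia and macrophage genes and 13 of 19 T and NK cell genes, against 35.5% of all genes tested. Such shares were also above that of all genes in other lists, at 64.5% for the circadian clock and 55.3% for matrix genes, and the differences were not tested. The median standard error was 0.45 with the block and 0.54 without it for microglia and macrophage genes, and 0.35 with and without it for all genes.

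Lists of the egg and of dividing cells had positive medians that varied with the numbers used. Oocyte factors had 14 of 15 positive (median 0.48), germline RNA-binding genes 15 of 20 (median 0.28) and proliferation genes 38 of 44 (median 0.34), but these medians were 0.05, 0.04 and 0.14 with the egg RNA level in the fit and were -0.96, -0.21 and -0.42 in the unbalanced subset with little egg RNA. Without 1 number they ranged over 0.0039 to 1.09 (lowest without control 5, highest without control 3), 0.039 to 0.53 (lowest without control 2, highest without PNX-14 number 3) and 0.023 to 0.73 (lowest without control 5, highest without control 3). Their ovary medians were 0.17, -0.04 and -0.04. The ovary mean was 7.51 to 7.60 log2 CPM in PNX-14 and 7.41 to 7.58 in control ovaries for proliferation, 8.32 to 8.57 and 8.22 to 8.56 for oocyte factors, and 5.63 to 5.797 and 5.37 to 6.07 for germline genes, where control ovaries were more spread. Within these lists, the RNA-binding factor larp6a had 1306 to 1554 CPM in PNX-14 ovaries and 667 to 1304 CPM in control ovaries, which just did not overlap. Its within-fish values did overlap, with a difference of 0.79 ± 0.41. The germ cell factor dazl had a difference of 1.85 ± 0.53 (SE) with 5.87 to 26.6 CPM in PNX-14 ovaries, 2.41 to 12.8 CPM in control ovaries and at most 1.92 CPM in any hypothalamus. A gene listed as ccnd1, described in the files as a carbohydrate sulfotransferase and so of uncertain identity, had 0.88 ± 0.35 and stx11a -1.21 ± 0.55.

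Steroid and cholesterol synthesis genes leaned the positive way. Of 25 cholesterol synthesis genes 22 had a positive difference (median 0.20), with ovary and hypothalamus medians of -0.03 and -0.14, and the median was -0.04 in numbers with little egg RNA. Of 24 steroid synthesis genes 17 were positive (median 0.27), which stayed between 0.08 and 0.41 under 15 alternatives. hsd17b7, which acts in cholesterol synthesis and estradiol formation, had 5.64, 7.42, 3.94, 4.26 and 7.38 CPM in PNX-14 ovaries against 4.03, 2.97, 2.69, 2.25 and 4.39 in control ovaries, and 5.21, 4.46, 3.74, 3.19 and 4.22 CPM in PNX-14 hypothalami against 7.06, 4.70, 4.71, 5.35 and 5.21 in control hypothalami. Its within-fish differences did not overlap (0.07 to 0.78 with PNX-14, -1.19 to -0.24 in controls), and the fitted value was 1.18 ± 0.35 (SE). hmgcs1, an early step of the sterol pathway, had 0.63 ± 0.26. Sex steroid, gonadotropin and GnRH receptors had 9 of 18 positive (median -0.02, -0.08 to 0.16 without 1 number), and the lead, the progestin-binding pgrmc1, had 0.49 ± 0.26.

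Brain lists had positive medians, and most of their genes had few reads in ovaries. The ovary filter was passed by 4 neuropeptide and hypothalamic hormone genes, 4 glia genes and 9 neuron genes, with ovary medians of 0.28, 0.29 and -0.14. The glia list still summed to 806 to 1014 CPM in PNX-14 and 688 to 1056 CPM in control ovaries. Neuropeptides and hypothalamic hormones had 14 of 19 positive (median 0.42), glia 11 of 14 (median 0.44) and neurons 18 of 29 (median 0.19, but -0.04 without control 2 and 0.40 without PNX-14 number 4), while hypothalamus medians were 0.02, -0.07 and -0.02. gnrh2, a neuronal GnRH form, had 7 to 21 counts in PNX-14 ovaries and 2 to 8 in control ovaries (difference 2.16 ± 0.75). AQP4, a water channel in the glia list, had 1.57 ± 0.70, on 5 to 12 counts in PNX-14 and 2 to 20 counts in control hypothalami. Its control differences were -0.483 to -0.045, and 1.29 in number 2, far from the glia list mean of -6.36 to -5.98 in controls. The synaptic gene nrxn1a had -2.71 ± 1.00 on 0 to 1 counts in PNX-14 and 0 to 7 counts in control ovaries. Of pituitary genes, smtla had 2.53 ± 0.93 but -0.86 in numbers with little egg RNA. Of growth factor genes, the activin-binding fsta had 1.69 ± 0.70, on 4 to 22 counts in PNX-14 and 0 to 7 counts in control ovaries.

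Further lists stood near the median of all genes or leaned negative. Cytosolic ribosomal proteins had 57 of 71 negative (median -0.20; rpl36 -0.60 ± 0.27). Their median was -0.43 without control 5, -0.09 without control 2 and -0.54 in the subset with little egg RNA. All 12 mitochondrial genome transcripts tested were negative (median -0.26), with medians of -0.57 in ovary and -0.22 in hypothalamus, and no call in either. The median difference was -0.45 without control 5, -0.12 without control 6 and -0.94 in the subset with little egg RNA. The 2 genes annotated as mt-nd1 had -0.49 ± 0.31 and -0.55 ± 0.36. Immediate early genes had a median of -0.26 (NR4A1 -2.42 ± 1.25, on 0 to 24 counts), matrix and matricellular genes -0.22, insulin and mTOR genes -0.14 (0.0028 in the subset with little egg RNA), and pyrimidine breakdown genes -0.18 (0.093 at most without 1 number). In the matrix list 31 of 47 genes were negative, and values did not overlap for 2 lower genes and 1 higher gene (0.588% of all genes, either direction). The higher one was the proteoglycan bgnb, at 0.66 ± 0.23, against the lean of its list. Single leads elsewhere were the clock gene BHLHE40 (-0.76 ± 0.23), the iron exporter slc40a1 (-0.73 ± 0.28), COL6A2 (-0.46 ± 0.20), top2b (-0.41 ± 0.22), ndufc2 of complex I (0.58 ± 0.27), dnajb5 (-1.32 ± 0.66), agxt2 (3.01 ± 0.97) and sgk1 (-4.30 ± 1.39), the last 2 on 0 to 13 and 0 to 24 counts in ovaries.

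**Figure D5:**
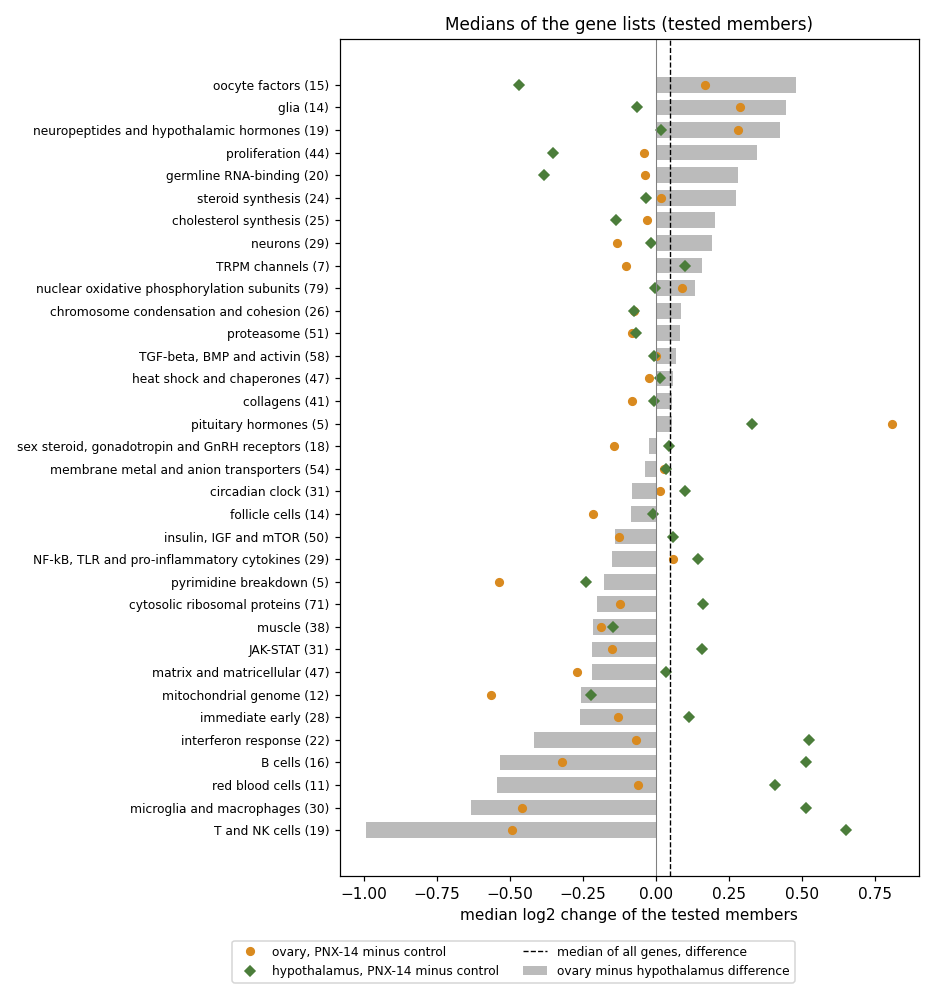
Median log2 change of the tested members (number in brackets) of 34 gene lists: grey bars for the ovary minus hypothalamus difference, orange circles for PNX-14 minus control in ovary, green diamonds for PNX-14 minus control in hypothalamus, and a dashed line for the median of all genes (0.05). T and NK cells, microglia and macrophages, red blood cells and B cells are lowest, at -0.99 to -0.54, and oocyte factors highest at 0.48, which reverses in numbers with little egg RNA.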

How the data were processed

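Poly(A) RNA was made into directional libraries. Per the paper's methods, fastp-trimmed reads were mapped with HISAT2 to the Ensembl assembly TETRAODON 8.0, and featureCounts gave the reads of each gene. The sources used here name no versions and do not say whether strand was used in counting. The authors deposited these read counts as whole, unscaled numbers. Deposited FPKM values, which the authors corrected for length and depth, were not used, nor were 22 per-sample columns of counts divided by size factors or the columns of the authors' own fold changes and p-values.

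The 2 tables were joined by gene ID, which gave 19217 genes, of 19979 hypothalamus and 19346 ovary genes. Of these 14465 had a symbol from the files, 209 from the paper's supplement and 4543 none. Genes kept by filterByExpr (17525) were scaled by TMM factors, and the robust quasi-likelihood test of edgeR 4.0.16 (R 4.3.3) was run in a model with the fish number as a block, organ, and organ by treatment. Benjamini-Hochberg adjusted p was called at 0.05. Standard errors are the fitted log2 value over the square root of F. Levels are CPM on the TMM scale, and log2 CPM used a prior count of 2. Organs were also fitted alone, 5 against 5. Whether the number marks a fish is not stated in the labels, so p-values measure the spread between these samples as paired by number.

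The deviations of same-numbered libraries correlated above 0.1 in 6 of 10 numbers over all genes. Named genes were those called, the 10 leading symbols in each direction, the lead of each list of 5 or more tested genes (up to 3 more, in order of p, for lists described at length) and 7 symbols written out. A gene that met this rule is not reported here. Members and lists were chosen with earlier results of these data known. Some of the fits were also run on simulated counts, with independent noise and changes only in genes above a mean count. Changes in genes near 0 counts, and genes that vary together, were thus not covered. Alternatives were DESeq2 1.42.0, limma 3.58.1, other scalings and filters, the model without the block, an egg RNA term and left-out numbers. Pairing by like-level genes, the fit on best-correlated numbers and the join that kept genes of 1 table were chosen after seeing the data.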

Additional observations from a re-analysis of the deposited data

Results flagged for a closer look

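The response of trpm1b differed between organs by 4.73 on the log2 scale (edgeR with the fish number as a block).

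Within groups of 5 fish, 14 of 208 groups of values held 1 fish far from the other 4, which is near the 1 in 20 or so that chance gives. The groups are not independent, since genes vary together between fish. The values are ovary minus hypothalamus log2 CPM. Among PNX-14 fish, number 3 had -2.44 for cd79b (others -5.33 to -4.76), -1.28 for lcp2a (others -2.51 to -2.16) and -0.585 for psmb8a (others -2.41 to -1.94), which are 3 immune genes of 1 fish. PNX-14 number 2 had 1.92 for cops2 (others 1.03 to 1.24), number 4 had 2.14 for the gene listed as ccnd1 (others 3.44 to 3.78) and number 5 had -0.863 for slc40a1 (others -1.47 to -1.31).

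Among controls, number 1 had -1.52 for slc40a1 (others -0.56 to -0.19) and -2.21 for lcp2a (others -1.17 to -0.81). Control number 2 had 1.29 for AQP4 (others -0.483 to -0.045), -4.66 for agxt2 (others -3.33 to -3.04) and a mean of -8.04 over the neuron list (others -7.39 to -7.23). Control number 5, whose organs did not correlate, had -2.30 for cahz (others -0.738 to -0.472), a mean of -0.441 over nuclear oxidative phosphorylation subunits (others 0.532 to 0.676) and a mean of -0.552 over the insulin, IGF and mTOR list (others -1.02 to -0.898).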

How the results depend on the processing

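The organ by treatment count of 1 gene (trpm1b) was also found with RLE size factors, no filter, TMM within each organ, both limma fits on differences, limma-voom, the egg RNA term, the best-correlated numbers and the join that kept genes of either table. It was 1 in all fits without 1 number (lowest 1, highest 1), 2 with DESeq2, 0 with at least 10 counts in every library, which drops trpm1b (499 genes at an unadjusted p under 0.05), and 0 in numbers with little egg RNA (1561 such genes), where trpm1b kept its direction at 5.15. With no replicate block it was 1 in 20 libraries (1026 genes at an unadjusted p under 0.05, against 727 with the block) and 1 in 22 libraries (1102 such genes). The 2 fits without the block are unpaired.

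The ovary count of 2 was 29 with DESeq2 and was 2 to 3 without 1 fish. It was 0 with at least 10 counts in every library (1108 at an unadjusted p under 0.05), a filter that drops both safb and trpm1b before the test. The hypothalamus count of 1 was 3 with DESeq2, 0 with at least 10 counts, which drops safb (497 at an unadjusted p under 0.05), 0 with all 12 hypothalami, 2 with the egg RNA term (safb and dpydb) and 0 to 2 without 1 fish (0 without controls 1, 5 or 6 or PNX-14 number 6).

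Directions turned for the unplaced safb copy (-0.12 with limma, prior count 2), dpydb (-0.11) and smtla (-0.86) in numbers with little egg RNA, and gpr85 (0.30) in the best-correlated numbers. The log2 difference of safb ENSTNIG00000015470 (chromosome 1) was 0.0351 in those numbers and 0.000489 to 0.0787 without control 5 or 6 or PNX-14 number 3, 5 or 6. DESeq2 called asb14a (-6.74).

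Limits: 5 fish a group, low ovary counts for brain and immune genes, egg RNA in hypothalami, and fish numbers not stated to mark 1 fish.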
